A study of Rattus norvegicus with 11 samples.

Results

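Odorant receptor transcripts were measured in rat trigeminal ganglia (TRG), the ganglia in which the somata of facial sensory neurons lie. Of 1156 odorant receptor genes with a probe on the array, 263 gave a signal well above background on each of the 11 arrays, and these 263 receptors (22.8%) are described here. Another 450 were detected on some arrays only and 443 (38.3%) on none. The receptors were chosen by their detection, so their presence above background is a description and was not tested. They were recognised by the RefSeq symbol of their transcript (Or, number, letters and number, or the older Olr and number), and 72 of the 263 symbols carry a further letter at the end.

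The ganglia came from male Wistar rats that had received 50 µl of complete Freund's adjuvant (CFA, killed mycobacteria in paraffin oil, 1 mg/ml) under the skin of the whisker pad on 1 side, and were excised 7 days later. The CFA group held 6 ganglia of the injected side (rats 1, 2, 3, 5, 6 and 8). The contralateral group held 5 ganglia of the opposite side (rats 1, 2, 3, 5 and 6). Rat numbers are those of the sample titles, and equal numbers were taken to mean the same rat. Both groups therefore came from injected animals, and no ganglion of an uninjected animal was analysed here. Each ganglion was hybridised to its own 1-colour array, with probes for mRNAs and long noncoding RNAs, after amplification of the RNA with random primers.

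The scan times of the arrays took 5 values over 3 days. Arrays with the same scan time were taken as 1 slide, and the slides are numbered here by that time. Slide 1 held the contralateral ganglion of rat 3 and slide 3 those of rats 1 and 2. On slide 2 were the contralateral ganglia of rats 5 and 6 and the CFA ganglion of rat 1, and it was the only slide with both groups. The CFA ganglia of rats 2 and 3 lay on slide 4, and those of rats 5, 6 and 8 on slide 5. The share of spots well above background was 68.9 to 82.3% on the CFA arrays and 71.6 to 82.8% on the contralateral arrays. No spot was saturated, and the number of arrays limits the precision.

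Odorant receptors are G protein-coupled receptors that form the largest gene family of the rodent genome. In the nose each olfactory sensory neuron expresses a single receptor gene, and the odour signal passes through the G protein subunit Gnal and the adenylyl cyclase Adcy3 to a cyclic nucleotide-gated channel. Class I receptors, the families Or51 to Or56, resemble those of fish, and all other families are class II. Receptor genes lie in clusters of close relatives that arose by duplication, and members of a cluster can be nearly identical in sequence. Transcripts of some of these genes are known from tissues other than the nose.

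Because near-identical genes can share a probe signal, the starts of the closest pairs are shown first. Windows of 300 bases around the annotated start (250 before and 50 after) were at hand for 221 of the 263 receptors, from RefSeq on the build GRCr8. All 221 annotated starts were at an ATG, so the windows surround the coding start and are no transcription start sites. Between these windows, 11 receptors had a copy identical at 90% or more of the positions, and for 8 of the 11 that copy was also detected on every array. The following lines give the last 50 bases before the start and the first 50 after it for the 4 pairs with identity of at least 95% in which both genes were detected on every array, with the bases that differ within a pair in capitals.
Or5d41 (chr3:94094031-94094130, minus strand): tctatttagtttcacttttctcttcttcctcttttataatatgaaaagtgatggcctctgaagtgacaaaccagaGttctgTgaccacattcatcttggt
Or5d41b (chr3:94105442-94105541, minus strand): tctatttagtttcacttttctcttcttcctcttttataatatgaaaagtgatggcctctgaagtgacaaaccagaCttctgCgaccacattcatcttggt
Or6c6f (chr7:3511567-3511666, minus strand): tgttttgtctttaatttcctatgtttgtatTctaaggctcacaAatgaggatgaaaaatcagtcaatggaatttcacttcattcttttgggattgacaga
Or6c6i (chr7:2599333-2599432, minus strand): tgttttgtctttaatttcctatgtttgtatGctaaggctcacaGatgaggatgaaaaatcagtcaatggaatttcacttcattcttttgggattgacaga
Or2ak6 (chr10:43699214-43699313, plus strand): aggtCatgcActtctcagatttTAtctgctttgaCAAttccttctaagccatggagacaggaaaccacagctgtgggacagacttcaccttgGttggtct
Or2ak6c (chr10:43649280-43649379, plus strand): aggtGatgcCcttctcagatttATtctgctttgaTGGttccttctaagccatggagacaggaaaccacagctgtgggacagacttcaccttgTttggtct
Or2y1c (chr10:34218895-34218994, plus strand): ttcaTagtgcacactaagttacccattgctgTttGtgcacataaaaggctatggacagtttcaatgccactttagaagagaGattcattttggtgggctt
Or2y1i (chr10:34238263-34238362, plus strand): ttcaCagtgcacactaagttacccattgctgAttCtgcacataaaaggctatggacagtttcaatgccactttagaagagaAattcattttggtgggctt

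Within these 100 bases Or5d41 and Or5d41b differed at 2 positions, Or6c6f and Or6c6i at 2, Or2ak6 and Or2ak6c at 8, and Or2y1c and Or2y1i at 4. Over the whole windows the identity was 98.3%, 97.7%, 95.7% and 95%, in the same order. The probe sequences were not used here, so it is uncertain whether a probe of either gene separates it from its copy.

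The windows of the detected receptors were searched on both strands for 4 short motifs. TAATTA, a core bound by homeodomain factors, was in 39 of 221 windows (17.6%), against 19.8% of 753 windows of the other odorant receptors and 5.35% of all 27457 windows. For TAATGA the shares were 28.1%, 27.5% and 10.9%. For TATAAA, the TATA box, they were 38.9%, 38.5% and 14.3%. CCCNNGGG, a core bound by Ebf factors, was in 3 of the 221 windows (1.36%), 1.06% of the other receptors and 12.7% of all windows. The median GC content was 37% for the detected receptors, 35% for the other receptors and 52.3% for all genes. In these letters the receptors detected on every array were close to the other odorant receptors, and both sets differed from all genes. Of the 753 windows of the other receptors, 750 also had their start at an ATG. That share was not determined for all genes, whose windows may surround another kind of start. The gap between the receptors and all genes may therefore compare unlike windows.

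**Figure D1:**
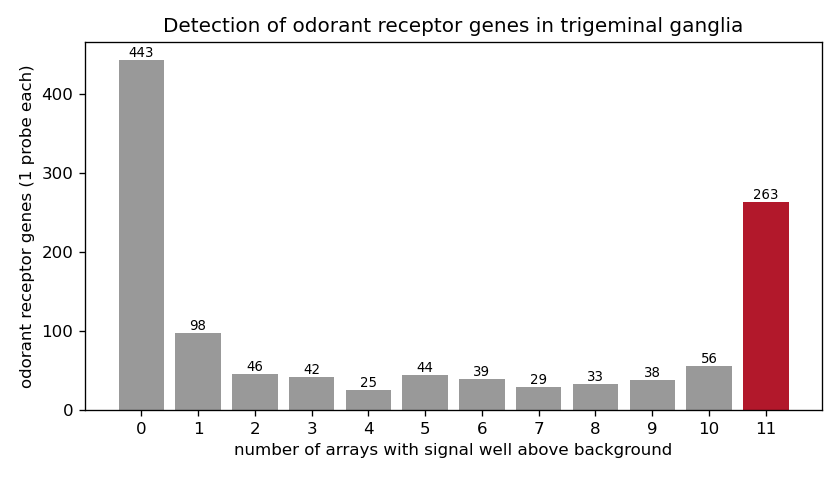
Number of odorant receptor genes (y axis) by the number of arrays on which their probe was well above background (x axis, 0 to 11). The bars at the ends are the tallest, with 443 genes on no array and 263 on all 11.

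The numbers of receptors by detection lay mostly at the ends, as the plot of detection shows. Between 25 and 98 receptors were detected on each intermediate number of arrays, with 56 on 10 arrays. Of the 13118 other mRNA probes that matched a gene symbol, 85.2% were detected on every array and 3.24% on none. The 4 receptors with the highest mean signal among those on 10 arrays were Or2y1d, Or55b4, Or1e22 and Olr59. Or2y1d was not well above background on the contralateral array of rat 5, where its normalised log2 signal was 3.59, against a mean of 6.22 over all arrays. Or55b4 fell short on the same array with 3.49 (mean 5.94), Or1e22 on the CFA array of rat 2 with 4.61 (mean 5.41), and Olr59 on the contralateral array of rat 5 with 4.0 (mean 5.41). Of the receptors inside the rule, the lowest single signals belonged to Or7g23b (2.83), Or2t48d (2.98), Or5ap2 (3.15) and Or7g25 (3.24), so the signals just inside and just outside the limit overlapped.

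**Figure D2:**
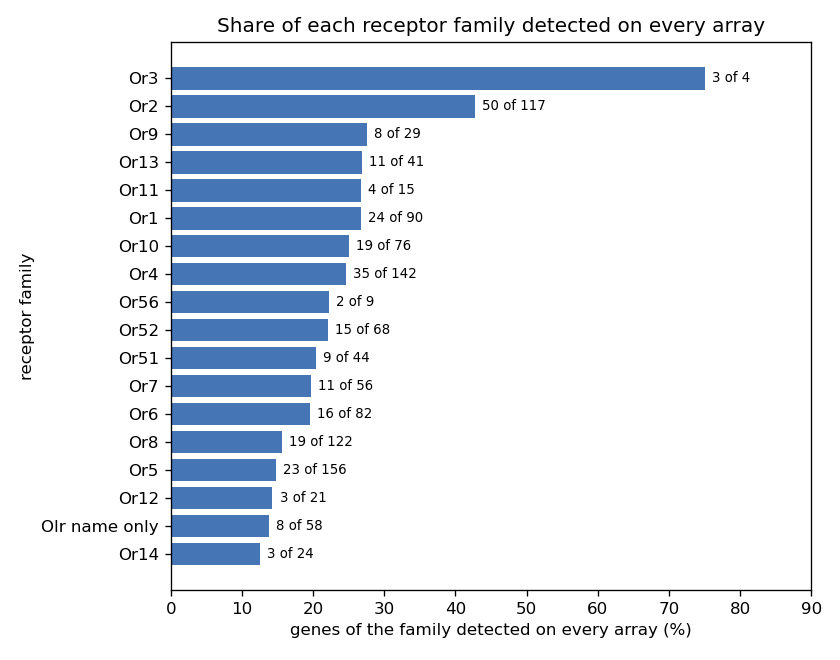
Share of the genes of each odorant receptor family that were detected on every array (x axis, %), for families with at least 4 genes on the array (y axis). Family Or2 had the largest number, 50 of 117, while Or5 had 23 of 156.

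Family Or2 gave 50 of the 263 receptors, which was 42.7% of its 117 genes on the array. Or3 had 3 of 4 genes, Or9 8 of 29, Or13 11 of 41, Or1 24 of 90 and Or4 35 of 142. Or5, the family with the most genes on the array, had 23 of 156 (14.7%), and Or8 19 of 122 (15.6%). Class I receptors were detected on every array in 26 of 123 cases (21.1%) and class II receptors in 229 of 975 (23.5%). A further 8 of 58 carry an Olr name only. By subfamily, 9 of 12 Or2ak genes, 10 of 15 Or2t genes, 8 of 13 Or2y genes and 6 of 9 Or6d genes were detected throughout. These shares describe the detection that chose the receptors and were not tested.

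Chromosome 10 carried 58 of the 263 receptors, 47.2% of its 123 odorant receptor genes on the array. Chromosome 1 carried 59 of 279 (21.1%) and chromosome 3 55 of 284 (19.4%), while chromosome 7 carried 12 of 90 (13.3%) and chromosome 11 2 of 35 (5.71%). In the order of protein-coding genes on GRCr8, 127 of the 263 (48.3%) lay beside another of them, against 252 of the 893 other receptors (28.2%) that lay beside a detected receptor. The longest run held 7 genes on chromosome 10, namely Olr1433, Or2ak6e, Or2ak5e, Or2ak4, Or2ak6c, Or2ak6 and Or2ak5d. The next held Or2y1, Or2y13, Or2y12, Olr1400 and Or2y11, also on chromosome 10. Close relatives lie side by side in these runs, so shared probe signal between copies is uncertain here as well. For 12 of the 263 receptors the gene model overlapped that of another gene, and for Or51b6 and Or51q1 this was Hbe1, an embryonic globin gene.

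**Figure D3:**
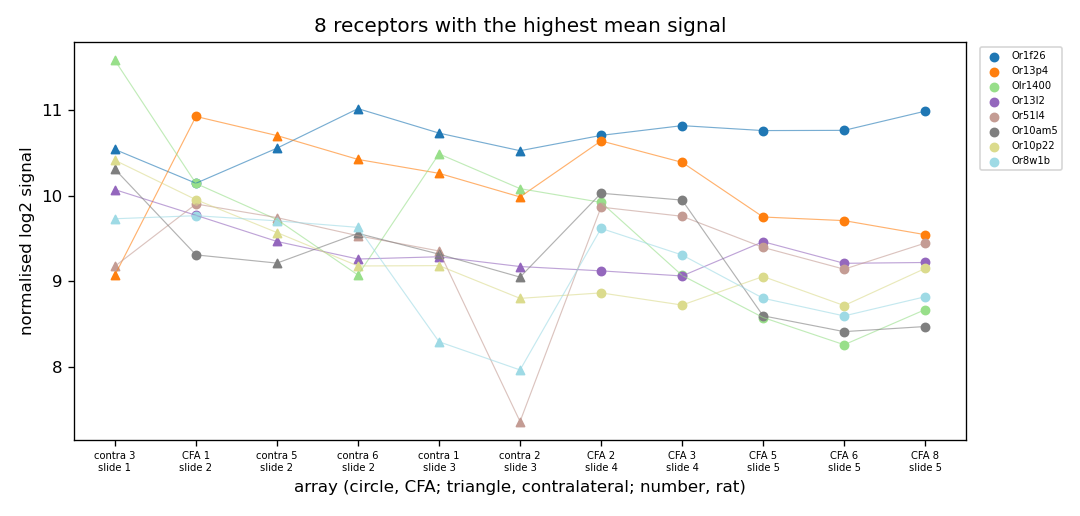
Normalised log2 signal (y axis) on each array (x axis, ordered by slide, circles for CFA and triangles for contralateral arrays) of the 8 odorant receptors with the highest mean signal. Or1f26 lies between 10.14 and 11.01 on all arrays, whereas Olr1400 ranges from 8.26 to 11.57.

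The mean normalised log2 signal of the 263 receptors lay between 4.01 and 10.68, with a median of 6.31. All signals below are on this log2 scale after quantile normalisation. The signal also depends on the probe, so the order of the receptors is an order of probe signals and not of RNA amounts. Highest was Or1f26, with 10.69 ± 0.29 (SD, n = 6) on the CFA side and 10.67 ± 0.21 (SD, n = 5) on the contralateral side. Or13p4 followed, with 10.16 ± 0.57 (SD, n = 6) and 10.09 ± 0.62 (SD, n = 5). Next came Olr1400 (mean over all arrays 9.60), Or13l2 (9.37), Or51l4 (9.33), Or10am5 (9.29), Or10p22 (9.24) and Or8w1b (9.11). The SD of these 8 over the 11 arrays was between 0.24 (Or1f26) and 0.98 (Olr1400), and neighbours in this order from Olr1400 downwards lay closer together than their SD. At the other end were Or2t48d (4.01), Or2g1 (4.08), Or11g1 (4.18) and Or2v2c (4.19).

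Within a receptor, the SD over the 11 arrays ranged from 0.17 to 1.59, with a median of 0.42. The most even signals were those of Or6d12 (SD 0.17), Or10ag59b (0.18), Or52l1b (0.19) and Or6k4 (0.19). Or6d12 lay between 4.83 and 5.42 on all arrays. The signals of Or4b1 (SD 1.59), Or9i1b (1.50), Or4k2 (1.49) and Or1j14 (1.47) varied most, and all 4 are described with the comparison of the sides.

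Among the class I receptors the highest mean signals were those of Or51l4 (9.33), Or51b6 (8.95), Or52r1 (8.94), Or51f1g (8.68), Or52ae9 (8.65), Or52l1 (8.08), Or52z1 (7.87) and Or51a39 (7.40). Or52r1 read 8.66 on the CFA array and 8.31 and 7.30 on the contralateral arrays of slide 2, and between 8.94 and 9.90 on the other arrays. Its low arrays were therefore those of a single slide, which holds both groups. Or51e1, a class I receptor also known from prostate and other tissues, was at 7.02 ± 0.25 (SD, n = 6) on the CFA side and 6.79 ± 0.44 (SD, n = 5) on the contralateral side. Or10j5, another receptor known outside the nose, was detected on 2 of the 11 arrays and is not among the 263.

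The comparison of the sides asked whether odorant receptor transcripts differed between ganglia of the CFA and the contralateral side. At the study's threshold (unadjusted p of 0.05 or less and a fold change over 2) 10 receptors were higher on the CFA side, among them Or1n1b, Or4k2 and Or8c18, and 10 were lower, among them Or4b1, Or1j14 and Or2y11. These 20 were 7.60% of the 263 receptors, against 2.01% of all 24684 probes, of which 1.14% were higher and 0.867% lower. No receptor passed an adjusted p of 0.05 (limma with Benjamini-Hochberg adjustment over all probes, smallest 0.200), and no other probe did (0.00% of all probes). At an unadjusted p of 0.05 alone, 18 receptors (6.84%) were higher, against 3.89% of all probes, and 57 (21.7%) lower, against 7.10%. The median log2 difference (CFA minus contralateral) was -0.23 over the 263 receptors, -0.06 over the 893 other odorant receptors and -0.05 over all probes. It was below 0 for 173 of the 263 (65.8%), against 58.4% of all probes.

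These counts rest on a design in which group and slide largely coincide, and the values within slide 2 differed from those over all arrays. Slide 2 held 1 CFA array, that of rat 1, and this array was also the only CFA array of scan day 1, which held all 5 contralateral arrays. Fits that block on slide or on scan day therefore give the difference of this 1 array from the contralateral arrays of rats 5 and 6 or from all 5, and are not 2 independent checks. The median log2 difference of the 263 receptors was 0.21 within slide 2, above 0 for 203 of them, and 0.14 within scan day 1. The fit with a slide block left 5 receptors at the threshold (2.60% of all probes passed) and that with a scan day block 2 (1.80% of all probes), with the lone CFA array assumed to vary like the others, and none of them was among the 20 in the same direction. For the other 5 CFA arrays slide, scan day and side cannot be told apart. Pairing the sides of each rat left 3 higher and 9 lower receptors, against 1.51% of all probes. With the CFA array of rat 1 left out, 5 receptors were higher and 17 lower (2.76% of all probes passed), and 6 receptors passed an adjusted p of 0.05 in limma, against 0.490% of all probes. Without the CFA array of rat 5 the number was 12 (1.53% of all probes). It was 2 with normexp background correction and an offset of 50 (0.0648% of all probes), 9 without background correction (0.190%) and 6 with slide as a random block (0.924%). In the first 2 of these settings the log2 differences of the 20 kept their sign but were all smaller, so fewer reached a fold of 2. That of Or1n1b was 0.78 and 1.13. The unadjusted limma p exceeded 0.05 only for Or1j14 (0.0707) and Or7a37 (0.0686) with normexp, and only for Or7a37 (0.0588) without correction.

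**Figure D4:**
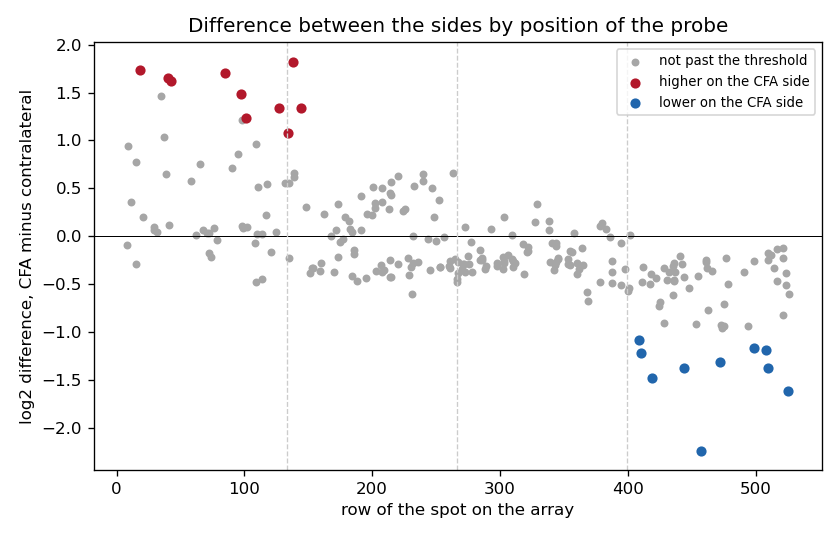
Log2 difference between the sides (y axis, CFA minus contralateral) of each of the 263 receptors against the row of its spot on the array (x axis, 532 rows, dashed lines between 4 bands). Receptors past the study's threshold are coloured, with all 10 higher ones in rows 18 to 144 and all 10 lower ones in rows 409 to 525.

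The difference also moved with the position of the probe on the array, as the plot against the row shows. Every receptor has a single spot, whereas other probes can have several (42136 spots for 24684 probes in all). A probe with several was placed at the row of its first spot, while its signal is the mean over its spots. The rows were split into 4 bands of equal height. The median log2 difference of the receptors was 0.16 in the first band (48 receptors), -0.02 in the second (80), -0.25 in the third (73) and -0.47 in the last (62). The receptors higher at the study's threshold numbered 7, 3, 0 and 0 in these bands, and the lower ones 0, 0, 0 and 10. In the last band 61 of 62 receptors were below 0. Of the 24421 other probes, 272 were higher and 204 lower at the threshold. The first band held 226 of the higher ones, 2.56% of its 8838 other probes, and the last band 153 of the lower ones, 3.78% of its 4052. The median over all probes stayed between -0.12 and 0.03 in the 4 bands. Because of the probes with several spots, neither these shares nor this median is a like comparison for the receptors. After the signals of each array had been centred within 19 narrower bands of rows and 3 classes of signal, 8 higher and 6 lower receptors passed the threshold (1.31% of all probes), all of them among the 20. The part of position in the differences of single receptors was not tested.

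**Figure D5:**
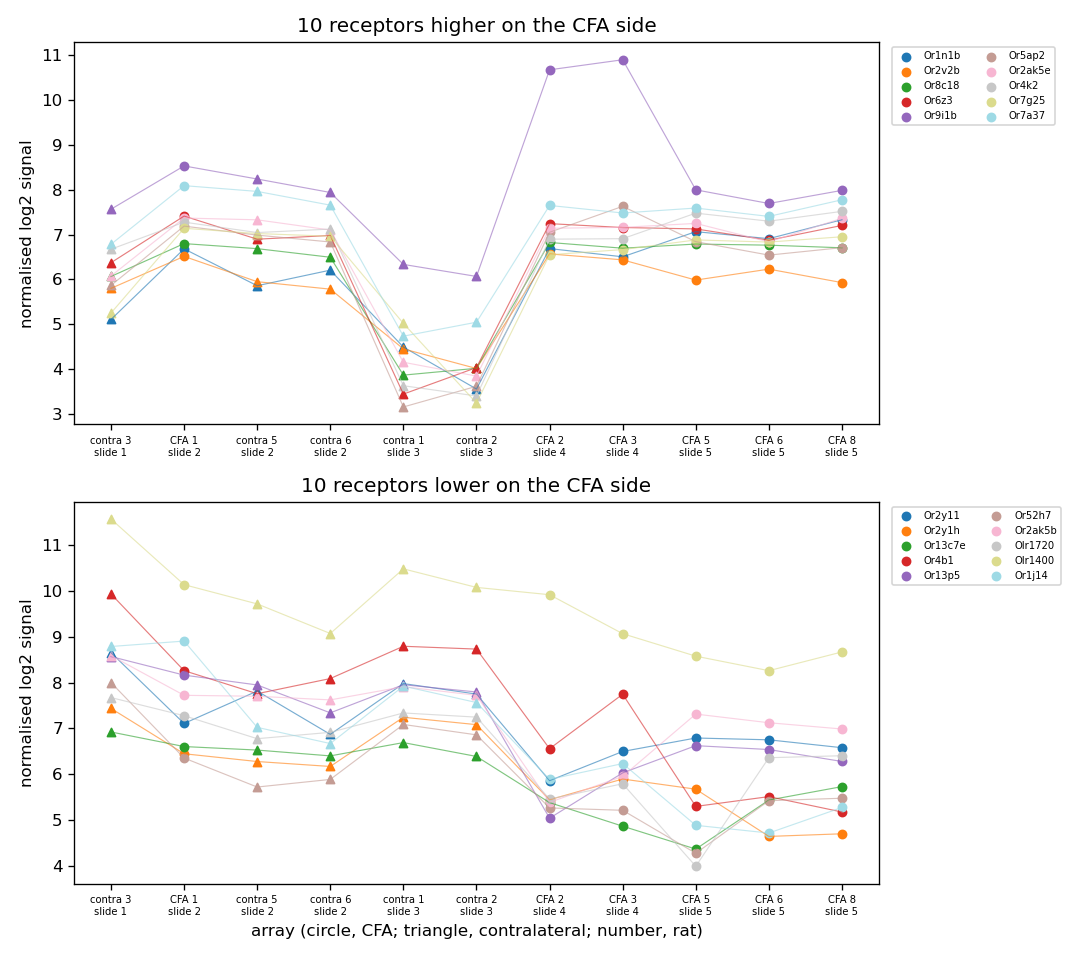
Normalised log2 signal (y axis) on each array (x axis, ordered by slide, circles for CFA and triangles for contralateral arrays) of the 10 receptors higher (top) and the 10 lower (bottom) on the CFA side. For all 10 higher receptors the 2 arrays of slide 3 are the lowest, and for 9 of the 10 lower receptors every array of slides 4 and 5 lies below every array of slides 1 to 3.

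All 10 higher receptors were lowest on the contralateral arrays of rats 1 and 2, the arrays of slide 3. Their signals there were 3.15 to 6.34, against 5.11 to 10.90 on the other arrays. Over all 263 receptors, slide 3 held the 2 lowest arrays for 38. The 10 were chosen for contralateral signals below those of the CFA side, and slide 3 holds 2 of the 5 contralateral arrays. Part of this pattern therefore follows from the choice. Without slide 3, which leaves 3 contralateral arrays, 4 receptors were higher and 10 lower at the threshold (1.42% of all probes passed), and of the 10 higher ones only Or1n1b (log2 difference 1.14) still passed. The log2 differences of the other 9 were then 0.20 (Or7a37) to 1.05 (Or9i1b). Without the contralateral array of rat 1 alone 1 receptor was higher and 8 lower (1.33% of all probes), and without that of rat 2 alone 1 was higher and 10 lower (1.50%).

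Or1n1b (also Olr416, chromosome 3, row 138) had contralateral signals of 4.49, 3.56, 5.11, 5.86 and 6.21 (rats 1, 2, 3, 5 and 6, the order kept below) and signals of 6.51 to 7.33 (median 6.80) on the 6 CFA arrays. The groups did not overlap, and in each of the 5 rats with both ganglia the CFA side was higher. The log2 difference of Or1n1b was 1.82 (SE 0.41, limma adjusted p = 0.237, two-sided exact permutation p = 0.00216, the smallest that the 462 splits allow). Within slide 2 the difference was 0.65.

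For Or8c18 (Olr1226, chromosome 8, row 127) the contralateral signals were 3.87, 4.02, 6.07, 6.69 and 6.50, and the CFA signals 6.70 to 6.83 (median 6.78). These groups did not overlap either, but the contralateral array of rat 5 lay 0.01 below the lowest CFA array. The log2 difference was 1.34 (SE 0.51, limma adjusted p = 0.426, exact permutation p = 0.00216) and within slide 2 it was 0.21. The groups of 8 receptors did not overlap (3 higher, 5 lower, 3.04% of the 263), against 1.20% of all probes, 0.519% higher and 0.677% lower.

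Or4k2 (Olr1608, chromosome 15, row 40) had 3.63, 3.4, 6.67, 7.05 and 7.12 on the contralateral side and 6.90 to 7.52 (median 7.29) on the CFA arrays. Or6z3 (Olr8, chromosome 1, row 43) had 3.44, 4.03, 6.37, 6.90 and 6.98, and 6.88 to 7.41 (median 7.18). Or5ap2 (Olr463, chromosome 3, row 85) had 3.15, 3.62, 5.87, 6.99 and 6.84, and 6.54 to 7.63 (median 6.95). In each of these 3 receptors the contralateral arrays of rats 5 and 6 lay within or near the CFA range, and those of rats 1 and 2 far below it. Their log2 differences were 1.66 (SE 0.71), 1.63 (SE 0.62) and 1.70 (SE 0.68), with limma adjusted p-values of 0.427 to 0.447, and 0.19, 0.47 and 0.28 within slide 2.

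Or2ak5e (Olr1435, chromosome 10, row 97), of the longest run of detected genes, had contralateral signals of 4.15, 3.84, 6.08, 7.33 and 7.10 and CFA signals of 6.84 to 7.37 (median 7.21). Or7g25 (Olr1138, chromosome 8, row 144) had 5.02, 3.24, 5.25, 7.02 and 6.96, and 6.55 to 7.14 (median 6.86). Or7a37 (Olr1078, chromosome 7, row 101) had 4.73, 5.05, 6.79, 7.97 and 7.66, and 7.41 to 8.09 (median 7.62). Here the groups overlapped, and the CFA side was higher in 3 of 5 rats in all 3 receptors. The log2 differences were 1.49 (SE 0.61), 1.34 (SE 0.59) and 1.23 (SE 0.56), and 0.15, 0.15 and 0.28 within slide 2.

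The contralateral signals of Or2v2b (Olr1385, chromosome 10, row 134) were 4.45, 4.01, 5.80, 5.95 and 5.78 and its CFA signals 5.93 to 6.57 (median 6.33), a log2 difference of 1.08 (SE 0.35) and of 0.65 within slide 2. Or9i1b (Olr384, chromosome 1, row 18) differed from the others in its CFA arrays. They read 10.68 and 10.90 on slide 4 (rats 2 and 3), and 7.70 to 8.53 on the other slides, whereas the contralateral arrays read 6.34, 6.07, 7.57, 8.24 and 7.94. Its log2 difference was 1.74 (SE 0.69, exact permutation p = 0.0606). High signals of Or9i1b were thus those of a single slide.

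The 10 lower receptors were lowest on slides 4 and 5, which held only CFA arrays. In 9 of the 10, all but Olr1400, every array of these slides lay below every array of slides 1 to 3. This was so for 36 of all 263 receptors. The 10 were chosen for low CFA signals, and slides 4 and 5 hold 5 of the 6 CFA arrays, so part of the pattern follows from the choice. In 9 of the 10 the contralateral array of slide 1 was the highest. The CFA array of rat 1, on slide 2, lay above the mean of the contralateral arrays of that slide in 9 of the 10, all but Or2y11. Without slide 5, 4 of the 10 (Or2y11, Or13p5, Or2ak5b and Olr1720) still passed the threshold as lower, and they were the only lower receptors then (2.32% of all probes passed in either direction).

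Or4b1 (Olr741, chromosome 3, row 457) had the largest difference. The contralateral signals were 8.79, 8.73, 9.94, 7.76 and 8.09, and those of the CFA arrays of rats 1, 2, 3, 5, 6 and 8 were 8.26, 6.56, 7.75, 5.30, 5.51 and 5.17. The CFA array of slide 2 lay within the contralateral range, the 2 of slide 4 below it and the 3 of slide 5 lowest. The log2 difference was -2.24 (SE 0.63, limma adjusted p = 0.305, exact permutation p = 0.0173), and 0.34 within slide 2.

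Or2y11 and Olr1400 are neighbours on chromosome 10. Their spots lie in adjacent rows of the array (410 and 409) but apart in columns (26 and 43). Or2y11 (Olr1401) had 7.98, 7.75, 8.66, 7.82 and 6.87 on the contralateral arrays and 5.86 to 7.11 (median 6.66) on the CFA arrays. Its log2 difference was -1.22 (SE 0.30, limma adjusted p = 0.251, exact permutation p = 0.00433) and the CFA side was lower in each of 5 rats. The CFA array of rat 1 lay 0.23 below the mean of the contralateral arrays of slide 2 and 0.71 below the mean of all 5. Olr1400 had 10.49, 10.08, 11.57, 9.72 and 9.07 on the contralateral arrays and 8.26 to 10.14 (median 8.87) on the CFA arrays, a log2 difference of -1.08 (SE 0.47) and of 0.74 within slide 2. Or2y1h (Olr1388, chromosome 10, row 444), of the same subfamily as Or2y11, had contralateral signals of 7.24, 7.08, 7.44, 6.28 and 6.17 and CFA signals of 4.64 to 6.45 (median 5.56), a log2 difference of -1.38 (SE 0.36).

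The Or13 family and the Or2ak subfamily also held lower receptors. Or13c7e (Olr837, chromosome 5, row 508) had 6.69, 6.39, 6.92, 6.53 and 6.40 on the contralateral and 4.36 to 6.60 (median 5.41) on the CFA arrays. Or13p5 (Olr859, chromosome 5, row 419) had 7.95, 7.80, 8.57, 7.95 and 7.34, and 5.04 to 8.16 (median 6.41). Or2ak5b (Olr1445, chromosome 10, row 499) had 7.91, 7.72, 8.59, 7.70 and 7.62, and 5.38 to 7.72 (median 7.06). In all 3 the highest CFA array was that of rat 1 on slide 2 and lay within the contralateral range. The log2 differences were -1.19 (SE 0.33), -1.48 (SE 0.45) and -1.16 (SE 0.40), and 0.14, 0.52 and 0.06 within slide 2.

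Or52h7 (Olr153, chromosome 1, row 510) was the only class I receptor past the threshold. Its contralateral signals were 7.09, 6.86, 8.00, 5.72 and 5.89 and its CFA signals 4.27 to 6.35 (median 5.34), a log2 difference of -1.38 (SE 0.44). Olr1720 (chromosome 20, row 472) had 7.34, 7.25, 7.67, 6.78 and 6.91, and 3.99 to 7.28 (median 6.08), a log2 difference of -1.31 (SE 0.48). Or1j14 (Olr402, chromosome 3, row 525) had 7.92, 7.57, 8.79, 7.02 and 6.67, and 4.71 to 8.91 (median 5.58), a log2 difference of -1.61 (SE 0.71). In Or1j14 the highest of all 11 signals was that of the CFA array of rat 1, so that the difference within slide 2 was 2.06.

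The near-identical pairs shown above lie apart on the array, and their 2 probes can be compared array by array. Or5d41 and Or5d41b (rows 195 and 491) had log2 differences of -0.43 (SE 0.21) and -0.38 (SE 0.17), and Or6c6f and Or6c6i (rows 139 and 39) of 0.66 (SE 0.35) and 0.65 (SE 0.40). Or2ak6 (row 327) and Or2ak6c (row 35) had 0.15 (SE 0.57) and 1.46 (SE 0.67). Or2ak6 was lowest on slide 2, with 5.82 and 6.31 on the contralateral arrays and 6.11 on the CFA array, and at 7.76 to 8.98 elsewhere. Or2ak6c was lowest on slide 3, with 4.87 and 5.62, and at 7.24 to 9.08 elsewhere. The copies were thus low on different slides. Or2y1c (row 263) was also lowest on slide 2, with 6.27, 6.67 and 6.74, while Or2y1i (row 215) had 7.21, 7.11 and 7.80 there. None of these 8 receptors passed the study's threshold, and Or2y1i (0.57, SE 0.19) was among the 3 higher ones whose groups did not overlap.

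Or51b6 and Or51q1, whose gene models overlap Hbe1, had log2 differences of 1.21 (SE 0.59) and 0.96 (SE 0.43) and did not pass the threshold. Both were lowest on slide 3, with 6.69 and 6.44 for Or51b6 and 4.25 and 3.55 for Or51q1. The 4 red blood cell markers measured were detected on every array, with log2 differences of -0.44 to 0.08.

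Genes that serve odorant receptors in the nose were measured on the same arrays. Of 14 genes of olfactory signal transduction with a probe, 10 were detected on every array, among them Adcy3 (mean log2 signal 12.59), the chloride loader Slc12a2 (13.67), the G protein subunits Gng13 (11.45) and Gnb1 (11.91), the arrestin Arrb2 (13.39), the phosphodiesterases Pde1c (8.71) and Pde4a (8.71), the exchange factor Ric8b (7.49), the channel subunit Cngb1 (5.89) and the kinase Grk3 (5.92). These signals are those of single probes and are not compared with each other. Cnga2, the defining subunit of the olfactory cyclic nucleotide-gated channel, was well above background on no array, Cnga4 on 5 and Stoml3 on 3. Of the factors that carry receptors to the cell surface, Reep1 was detected on every array, Rtp1 on 10 and Rtp2 on none. Of 8 genes with a role in receptor gene choice, 7 (Ldb1, Emx2, Ebf1, Ebf2, Kdm1a, Atf5 and Eif2ak3) were detected on every array and Lhx2 on 8.

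Among these 25 genes 1 passed the study's threshold, against 2.01% of all probes, and a count of 1 is too small to set apart from that share. Omp, the marker protein of mature olfactory sensory neurons, was higher on the CFA side (5.33 ± 0.09 (SD, n = 6) against 3.95 ± 1.64 (SD, n = 5), log2 difference 1.38, SE 0.61, limma adjusted p = 0.450) and was well above background on 9 arrays. Its spot lies in the first band of rows, like those of 7 of the higher receptors, and without the CFA array of rat 1, 2, 3, 5, 6 or 8, or the contralateral array of rat 1 or 2, it no longer passed. The median log2 difference was -0.08 over the signal transduction genes and 0.08 over the genes of receptor choice, against -0.05 over all probes.

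Cell type markers gave the setting of these values. All 10 sensory neuron markers, 5 of 6 satellite glia markers and all 5 Schwann cell markers measured were detected on every array, and Kcnj10 on 2. Of 9 markers of olfactory sensory neurons, 3 (Adcy3, Gng13 and Gng8) were detected on every array and Cnga2 and Rtp2 on none. Markers of the anterior pituitary, which lies beside the ganglion, varied widely within both groups, for Prl with an SD of 4.70 on the CFA and 3.85 on the contralateral side, and 5 of 8 were detected on every array. Of skeletal muscle markers 5 of 5 were. In whole ganglia fewer cells of a type and less RNA per cell cannot be told apart, and which cells gave the receptor signals was not tested.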

How the data were processed

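The authors deposited, for each array, background-subtracted intensity values from Agilent Feature Extraction (version 11.0.1.1 in the labels) and a table of intensity values that they had quantile normalised with limma. The log2 of the deposited processed signal of 42136 spots (1417 controls left out) was quantile normalised, spots with outlier flags (1.38%) were set to missing, and spots were averaged per probe, which gave 24684 probes. No value of the 263 receptors was missing. Transcript accessions, without versions, were matched to RefSeq symbols (GRCr8) for 14274 of 15323 mRNA probes. The files' own build differs, so no position of a probe is given, and the printed sequences and gene order are those of GRCr8.

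CFA and contralateral arrays were compared with limma 3.58.1 (R 4.3.3) over all probes, at the study's threshold and with Benjamini-Hochberg adjustment. Differences of single receptors were also tested by two-sided exact permutation over 462 splits. For the 20 receptors past the threshold this exact p was 0.00216 to 0.0736, and the limma adjusted p 0.237 to 0.454. The exact p exceeded 0.05 for Or7a37 (0.0649), Or7g25 (0.0606), Or9i1b (0.0606), Olr1400 (0.0606) and Or1j14 (0.0736). By the numbers in the sample titles the 11 ganglia came from 6 rats, 5 of which gave both sides. The p-values measure the spread between arrays within a group, which holds differences between slides and scan days as well as between ganglia. Apart from the blocked and paired alternatives, they treat the 11 arrays as independent, although slides and rats were shared. Named receptors were those with the 8 highest and 4 lowest mean signals, the 4 largest and 4 smallest SDs, all past the threshold up to 12 in each direction, the 8 class I receptors with the highest signals, Or51e1, the receptors at the detection limit, the pathway genes detected on every array or past the threshold, and near-identical pairs. Those pairs were taken from start windows, since protein sequences were not used here. Or51q1, Or10j5, and the other pathway and marker genes were named after their values were seen. The receptors and gene lists were chosen with earlier results of these data known. Equal numbers were taken to mark the sides of the same rat, but the residuals of these sides correlated at -0.08 to 0.13. No CFA array correlated best with the contralateral array of its own number. The pairing was used as an alternative only. Alternatives with another or no background correction started from the median spot signal, since a mean signal was not used here. The fit was tested on simulated data with independent arrays and no effect of slide, scan day or row. That test cannot show whether the p-values hold for the present design. Python 3.11.15 was used for the tables.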

Additional observations from a re-analysis of the deposited data

Results flagged for a closer look

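Each of the 44 named receptors was checked for an array that stood apart from the others of its group, which made 88 groups. The limit used would mark about 1 in 20 of independent groups that were not chosen by their values. Many of the receptors were named for a large SD, a difference between the sides or a low single array, and all share the same arrays. That rate therefore does not apply here. Marked were 6. The CFA array of rat 1 stood apart in 4 of them. It was low for Or1f26 (10.14, the other CFA arrays from 10.70), and high for Or10p22 (9.95, the others up to 9.15), Or1j14 (8.91, the others up to 6.23) and Or51e1 (7.50, the others up to 7.03). This array is the CFA array of slide 2, the other CFA arrays lying on slides 4 and 5. The contralateral array of rat 2 was low for Or51l4 (7.37, the others from 9.18) and Or7g23b (2.83, the others from 4.74). Or7g23b had been named for this same low signal. The cause was not tested.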

How the results depend on the processing

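The number of receptors at the study's threshold (20) was 18 with scaling to the 75th percentile and 19 with the deposited table. It was 19 to 21 with a filter on dim probes, flagged spots kept, the median of spots or an intensity trend. These last settings left the median log2 difference of the receptors (-0.23) and the differences of the 20 unchanged. Only p-values moved, so these last settings cannot test whether the differences hold. With all of these settings 1.63 to 2.15% of the probes tested passed. Centring in bands of rows gave 14 receptors (1.31%). The number was 2 with normexp (0.0648% of all probes), 9 without background correction (0.190%), 5 with a block for slide (2.60%), 2 with a block for scan day (1.80%), and 6 with a random block for slide (0.924%). With normexp and without background correction the log2 differences of the 20 were all smaller, so fewer reached a fold of 2. With the rat as a replicate block, that is with the pairing of the sides, the number was 12 (3 higher, 9 lower, all among the 20, against 1.51% of all probes). Leaving out each array in turn gave 9 to 28 receptors (1.33 to 3.22% of all probes), with 12 without the CFA array of rat 5 (1.53%), 9 without the contralateral array of rat 1 (1.33%) and 11 without that of rat 2 (1.50%). Without the CFA array of rat 1 there were 22 (5 higher, 17 lower, against 2.76%), and 6 passed an adjusted p of 0.05 (limma), as did 0.490% of all probes. 2 settings were chosen after the data were seen, and gave 14 receptors without slide 3 (1.42%) and 8 without slide 5 (2.32%).

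The median log2 difference of the receptors (-0.23) was -0.29 to -0.15 with each array left out, and changed sign with a block for slide (0.21) or for scan day (0.14). Both blocked values, here and for single receptors, rest on the CFA array of rat 1 alone, the only CFA array that shared a slide or a scan day with contralateral arrays. Blocking on slide also changed the sign for Olr1400 (0.74), Olr1720 (0.43), Or13c7e (0.14), Or13p5 (0.52), Or1j14 (2.06), Or2ak5b (0.060), Or2y1h (0.22), Or4b1 (0.34) and Or52h7 (0.55), and blocking on scan day for Olr1720 (0.088), Or13c7e (0.018), Or13p5 (0.24) and Or1j14 (1.31). No other called receptor changed sign under these alternatives. For the pathway genes that follow, the share of all probes past the threshold was 2.01% at the main setting. Of the 25 pathway genes, 1 passed the threshold, but 0 did with 75th percentile scaling, normexp, no background correction, either slide block, the scan day block, the replicate block or row bands, without slide 3 or slide 5, and 0 to 1 with each array left out. Counted by positive and significant signal in place of well above background, 446 receptors in place of 263 were detected on every array. Asking for all spots gives the same 263 by construction, since each odorant receptor probe has 1 spot.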
